A study of Arabidopsis thaliana with 26 samples.

Results

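The plant hormone abscisic acid is made by a chain of enzymes that cleave, oxidise and release it, and it is removed by a family of hydroxylases. The 10 Arabidopsis thaliana genes described here encode enzymes of both sides. They were listed by gene identifier, with earlier results of these data known. Counts of members called are therefore no independent comparison with all genes. Among the 10 are the hydroxylases CYP707A1, CYP707A2, CYP707A3 and CYP707A4 and the dioxygenases NCED3, NCED5 and NCED9. The others are the dehydrogenase ABA2, the aldehyde oxidase AAO3 and the glucosidase BG1. Together the members are 10 of the 33977 genes in the count files. Of these 10, 8 passed the filter on low counts and were tested among 22031 genes, while NCED5 and NCED9 were too low to be tested.

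RNA was sequenced from whole plants with their roots, at an age of 10 days, all in the Columbia-0 background and all grown on agar medium. Wild type and an msh1 memory line were each grown with 0 or 100 µM 5-azacytidine, a cytidine analogue that blocks the maintenance of DNA methylation. As background, memory lines come from ancestors with suppressed MSH1, whose protein acts on the DNA of mitochondria and plastids. The labels give 3 biological replicates of wild type with and 3 without azacytidine, and 2 of the memory line under each condition, in 26 libraries. They do not say from how many plants or separate cultures each replicate came, so the p-values reflect only how far these samples spread, which may be technical.

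In the biosynthetic route, xanthophylls of the plastid are cut by 9-cis-epoxycarotenoid dioxygenases (NCED), the step thought to limit the rate. The product is oxidised by ABA2 to abscisic aldehyde and by AAO3 to the hormone. Hydroxylation by the CYP707A cytochromes P450 starts its breakdown to phaseic acid, and a stored glucose ester can be split again by BG1, a beta-glucosidase of endoplasmic reticulum bodies. In the plant the balance of both sides is known to set dormancy release, stomatal closure and the response to drying.

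The upstream sequences of 3 hydroxylase genes are shown because these genes had the highest hydroxylase levels per length, and CYP707A1 and CYP707A2 carry the calls reported below. Each is the 250 bases before the annotated gene start in the RefSeq assembly TAIR10.1, read 5′ to 3′ on the strand of the gene, with the motif matches in capitals. They are chr4:10521009-10521258 (plus strand) for CYP707A1, chr2:12499724-12499973 (minus strand) for CYP707A2 and chr5:18371022-18371271 (minus strand) for CYP707A3.
CYP707A1: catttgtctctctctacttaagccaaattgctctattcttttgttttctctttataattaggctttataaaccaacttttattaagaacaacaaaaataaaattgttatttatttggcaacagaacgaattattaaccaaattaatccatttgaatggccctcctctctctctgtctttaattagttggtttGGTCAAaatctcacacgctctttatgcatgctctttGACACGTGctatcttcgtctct
CYP707A2: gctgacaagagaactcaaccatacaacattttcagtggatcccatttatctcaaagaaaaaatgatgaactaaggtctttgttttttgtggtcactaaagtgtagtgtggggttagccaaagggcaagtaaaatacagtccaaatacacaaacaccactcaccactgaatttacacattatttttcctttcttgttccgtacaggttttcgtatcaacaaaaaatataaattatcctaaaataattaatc
CYP707A3: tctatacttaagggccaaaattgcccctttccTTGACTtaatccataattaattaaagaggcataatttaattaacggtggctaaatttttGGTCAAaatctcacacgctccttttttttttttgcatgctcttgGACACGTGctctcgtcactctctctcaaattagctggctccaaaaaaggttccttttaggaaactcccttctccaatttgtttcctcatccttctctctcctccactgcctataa

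The windows of CYP707A1 and CYP707A3 held the abscisic acid response element ACGTGTC, which overlaps the G-box CACGTG, and the W box TTGACC. All motifs were searched on both strands. In CYP707A1 the response element began 22 bases before the start and in CYP707A3 it began 115 bases before it. These windows share 3 exact stretches, the 23 bases tttggtcaaaatctcacacgctc, the 11 bases tgcatgctctt and the 10 bases gacacgtgct. No stretch of 10 or more bases in the window of CYP707A2 matched either of the other two.

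Among 27443 protein-coding genes, 3.68% held ACGTGTC in the same window, 6.49% held CACGTG and 12.2% held TTGACC. CYP707A2 had none of the 7 motifs searched, which also included ACGTGGC (3.37% of all windows), the dehydration response element core CCGAC (11.97%), the W box TTGACT (19.1%) and the evening element AAAATATCT (2.36%). Among the other members, NCED9 held ACGTGTC and CACGTG, ABA2 held CCGAC and TTGACT, and AAO3 held TTGACT. CYP707A3 held TTGACT as well. A match describes letters in a window and not a binding site.

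The hydroxylase genes lie on separate chromosomes: CYP707A1 (AT4G19230) at chr4:10521259-10523961, CYP707A2 (AT2G29090) at chr2:12494826-12499723, CYP707A3 (AT5G45340) at chr5:18368532-18371021 and CYP707A4 (AT3G19270) at chr3:6673689-6676521, in TAIR10.1. NCED3 (AT3G14440) is at chr3:4831286-4834015 and AAO3 (AT2G27150) at chr2:11601727-11608450. On chromosome 1 lie NCED5 (AT1G30100, chr1:10571310-10573365), NCED9 (AT1G78390, chr1:29490705-29492875), ABA2 (AT1G52340, chr1:19489794-19491650) and BG1 (AT1G52400, chr1:19514989-19518411), which the reference calls BGLU18. ABA2 and BG1 are 23.3 kb apart with 8 genes between them. The NCED genes have 1 exon each.

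The library kit kept no record of the strand. In ABA2, 39.7% of the exon bases lie under exons of genes on the opposite strand, and in AAO3 13.8% do, so reads there cannot be told apart by strand. The other 8 genes have no such overlap. CYP707A1 and CYP707A3 are 90.1% identical over 171 bases, a length above that of a read. Reads that did not align uniquely have an entry of their own, apart from the genes. The sources used here do not give the rule by which a read was taken as unique. The transcript of CYP707A2 had 124 other matches in the nuclear genome, each shorter than those 171 bases. The next highest number was 20, for AAO3. Whether reads from such matches entered the counts of CYP707A2 was not tested.

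Summed over technical libraries of the same RNA, the replicates held 11412839 to 13544859 gene counts. Of the uniquely aligned reads, 48.3% to 49.3% were assigned to no gene in the counting. The strand setting of the counting is not given in the sources used here, so where these reads lay is not known. Multiply aligned reads took up 25.7% in memory-line replicate 2 and 6.49% to 13.6% elsewhere. Along the first principal component (log2 CPM), wild-type replicate 3 stood at -14.3, apart from wild-type replicates 1 and 2 at -41.1 and -38.5. MSH1 was expressed at 8.67 to 20.4 CPM in all 10 replicates. All 6 root markers and all 6 green shoot markers were detected in every replicate, as whole plants with root should give. The summed root markers were lower in treated plants, at 18.5 to 25.0 CPM in treated wild type and 18.4 to 21.3 in the treated memory line, than in wild-type plants, at 41.4 to 44.3, and memory-line plants, at 30.9 and 33.1.

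Per kilobase of exon, BG1 was the most abundant of the 10 genes, with a mean of 81.5 CPM per kb over the 10 replicates (range 43.8 to 161). CYP707A3 followed at 13.1 (3.64 to 22.1) and ABA2 at 11.0 (8.32 to 14.5), and the ranges of these neighbours overlap. AAO3 (3.16), CYP707A1 (2.96) and CYP707A2 (2.55) formed the next step, also with overlapping ranges, and NCED3 (0.600), CYP707A4 (0.373), NCED5 (0.174) and NCED9 (0.113) were the lowest. The lowest 4 rest on few reads, at most 33 counts for NCED3, 16 for CYP707A4, 9 for NCED5 and 8 for NCED9 in a replicate. Levels below are CPM, gene counts relative to library size, scaled between replicates by TMM factors, unless said to be per kb.

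**Figure D1:**
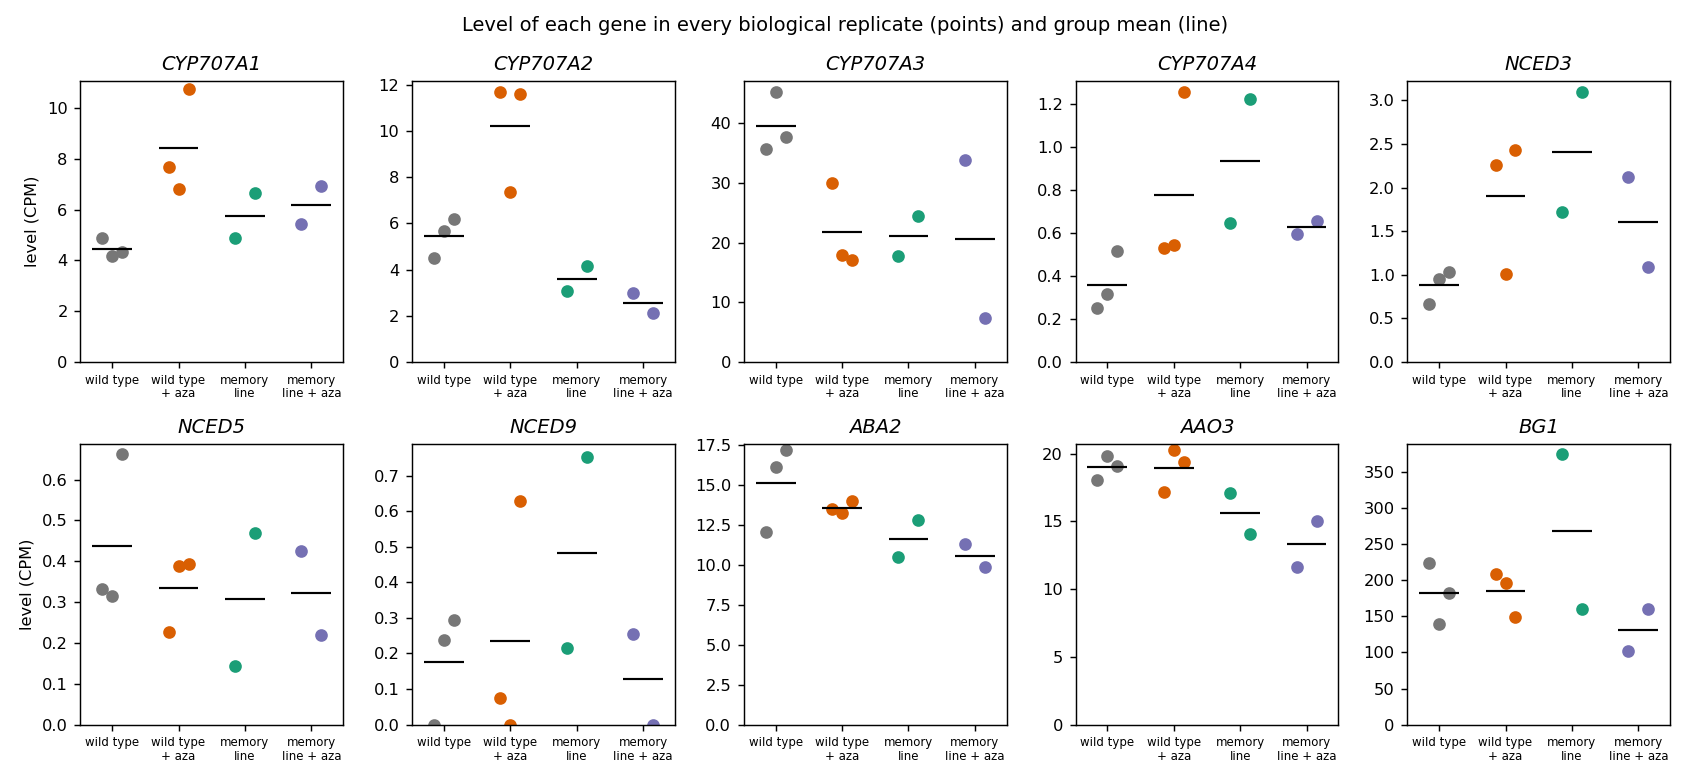
Level of each of the 10 genes in CPM (y axes, from 0) in every biological replicate, by group on the x axis, with the group mean as a line. In CYP707A2 the 3 treated wild-type points, 7.36 to 11.7 CPM, lie above all others, and the 2 treated memory-line points, at 2.12 and 2.98, are the lowest.

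CYP707A1 and CYP707A2, both abscisic acid hydroxylases, rose in wild type on azacytidine, and CYP707A2 was lower in the treated memory line than in treated wild type. In the edgeR fit of all 4 groups no other member was called in the 5 comparisons, which were azacytidine against none in each genotype, the memory line against wild type without and with azacytidine, and the difference between both azacytidine responses. A gene was called at an adjusted p under 0.05 over all genes tested. Other fits also called CYP707A3 or BG1, as given with each gene.

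CYP707A1 is best known from maturing seeds and guard cells. Its level was 4.90, 4.18 and 4.34 CPM in the 3 wild-type replicates and 7.69, 6.82 and 10.8 in the 3 treated ones. Memory-line plants had 4.88 and 6.67 without and 5.44 and 6.93 with azacytidine. The 3 treated wild-type replicates were all above the 3 untreated ones, and the values of the memory line overlapped between treatments.

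The group means were 4.47 ± 0.381 CPM for wild type and 8.42 ± 2.07 for treated wild type (SD, n = 3 each), 53 to 59 counts a replicate against 88 to 137. The fitted change was 1.88-fold, or 0.91 on the log2 scale (SE 0.23, 95% interval 0.41 to 1.41, edgeR quasi-likelihood test, adjusted p = 0.0348). CYP707A1 was thus 1 of 2 members called in this comparison, of 8 tested. Of all genes tested, 6.39% were called and 3.02% were called higher, while the members were chosen with earlier results known. Without wild-type replicate 3, which stood apart, the change was 0.90 (adjusted p = 0.0473). It was not called without wild-type replicate 1 (adjusted p = 0.0796) or 2 (0.127), nor without treated wild-type replicate 1 (0.0910), 2 (0.0551) or 3 (0.117), nor on the first technical library alone (0.157). Its change in these 6 fits was 0.70 to 1.04.

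In the memory line the azacytidine change of CYP707A1 was 0.11 (SE 0.28, 95% interval -0.50 to 0.72, edgeR adjusted p = 0.962). The difference between both responses was -0.80 (SE 0.37, 95% interval -1.59 to -0.01, edgeR adjusted p = 0.577), so a differing response was not called. Between genotypes the change was 0.36 without azacytidine (edgeR adjusted p = 0.563) and -0.44 with it (adjusted p = 0.522).

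CYP707A2 is known as the hydroxylase that lowers abscisic acid in imbibed seeds. Wild-type plants had 4.49, 5.67 and 6.18 CPM without azacytidine and 11.7, 7.36 and 11.6 with it. Memory-line plants had 3.08 and 4.13 without it and 2.98 and 2.12 with it. The 4 groups did not overlap in the order treated memory line, memory line, wild type and treated wild type, so that azacytidine was accompanied by higher values in wild type and lower ones in the memory line.

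In wild type the means were 5.45 ± 0.868 and 10.2 ± 2.48 CPM without and with azacytidine (SD, n = 3 each), 54 to 84 counts against 95 to 155. The change of CYP707A2 was 1.87-fold, or 0.90 on the log2 scale (SE 0.24, 95% interval 0.38 to 1.43, edgeR adjusted p = 0.0424), and without wild-type replicate 3 it was 1.01 (adjusted p = 0.0329). Among the fits with fewer libraries, the call was lost without wild-type replicate 1 (adjusted p = 0.156) or 2 (0.123), without treated wild-type replicate 1 (0.165) or 3 (0.121), and on the first technical library alone (0.0766), at changes of 0.78 to 0.95. In all, 6 of 18 alternatives did not call it.

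On azacytidine CYP707A2 was 4.03-fold lower in the memory line, at 2.55 ± 0.608 CPM (SD, n = 2, 29 and 35 counts), than in wild type. The log2 fold change was -2.01 (SE 0.30, 95% interval -2.66 to -1.36, edgeR adjusted p = 0.0407). CYP707A2 was the 1 member of 8 tested that was called in this comparison. Of all genes tested, 0.0454%, or 10 genes, were called and 0.0227% were called lower. The members were chosen with earlier results known. Over single technical libraries, in CPM without TMM factors, the 5 of the treated memory line lay at 1.79 to 3.10. The 9 of treated wild type lay at 5.85 to 12.4, without overlap. These libraries repeat the RNA of 2 and 3 biological replicates, so they add no independent samples.

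That call of CYP707A2 depended on several replicates. It was lost without wild-type replicate 2 (-2.02, adjusted p = 0.0751), treated wild-type replicate 1 (-1.90, 0.186) or 3 (-1.91, 0.0773), or treated memory-line replicate 1 (-2.27, 0.0613) or 2 (-1.80, 0.630), and on the first technical library alone (-1.70, 0.0792). The gene was also called by DESeq2 and by limma voom run over libraries. Its adjusted p ranged from 4.03e-06 to 0.630 over 18 alternatives, of which 12 called it.

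Without azacytidine CYP707A2 stood at 3.61 ± 0.743 CPM (SD, n = 2) in the memory line, with a log2 fold change against wild type of -0.60 (SE 0.29, 95% interval -1.23 to 0.03, edgeR adjusted p = 0.340). The azacytidine change within the memory line was -0.50 (SE 0.34, edgeR adjusted p = 0.730). The difference between both responses was -1.41 on the log2 scale (SE 0.42, 95% interval -2.30 to -0.51), with an unadjusted p of 0.00467 and an edgeR adjusted p of 0.430. The opposite directions in the 2 genotypes were therefore not called as a difference.

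**Figure D2:**
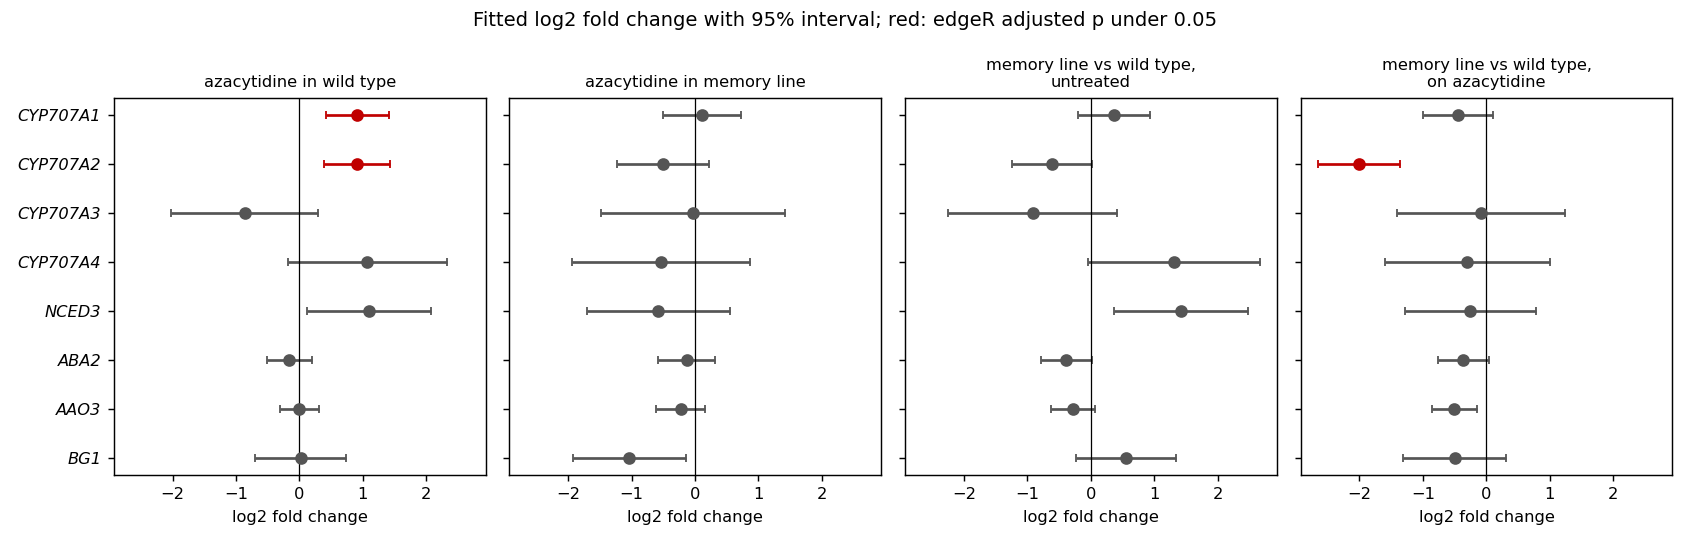
Fitted log2 fold change (x axes) with its 95% interval for the 8 tested genes in 4 comparisons, with called genes in red. CYP707A1 at 0.91 and CYP707A2 at 0.90 are called in wild type on azacytidine, and CYP707A2 at -2.01 between the treated genotypes.

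CYP707A3, described as the main hydroxylase of vegetative tissue after rehydration, had 35.7, 45.2 and 37.7 CPM in wild-type plants without azacytidine and 30.1, 18.0 and 17.1 with it. The memory line had 17.7 and 24.4, and with azacytidine 33.9 and 7.44. All replicates of the treated wild type and of the memory line lay below the lowest wild-type replicate, and the 2 treated memory-line replicates lay at the ends of the whole range outside wild type. Its biological coefficient of variation was 0.418, the highest of the 8 genes tested, against 0.184 for CYP707A1 and 0.166 in common over all genes.

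The log2 fold change of CYP707A3 was -0.86 on azacytidine in wild type (SE 0.49, 95% interval -2.02 to 0.30, edgeR adjusted p = 0.333). It was -0.91 in the untreated memory line against wild type (SE 0.57, 95% interval -2.24 to 0.42, edgeR adjusted p = 0.508). Neither was called. Without treated memory-line replicate 1 or 2, whose values lie far apart and enter the shared estimate of spread, the wild-type change was called at -0.86 (adjusted p = 0.0420 and 0.0423), and so it was in a fit of the wild-type groups alone (-0.86, adjusted p = 0.0345). Limma voom on the 26 technical libraries called both changes, at adjusted p = 0.00773 and 0.0266. That fit allows for a correlation between libraries of the same RNA but takes its residual degrees of freedom from libraries, not from the 10 replicates.

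The summed green shoot markers stood at 23501 and 11207 CPM in treated memory-line replicates 1 and 2, and at 12587 and 22958 in the untreated ones. In both groups the replicate with the lower sum also had the lower CYP707A3 value. The sum ranged from 17548 to 23455 in wild type, in another order than CYP707A3, and from 19700 to 20599 in treated wild type, in the same order. In RNA from whole plants, fewer cells of a type and less RNA per cell cannot be told apart. The part of this marker sum in the spread of CYP707A3 was not tested.

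CYP707A4 was the lowest hydroxylase. Wild-type levels were 0.249, 0.315 and 0.515 CPM without azacytidine and 0.528, 0.542 and 1.26 with it. Memory-line levels were 0.646 and 1.22, then 0.595 and 0.657 on azacytidine. All 7 replicates that were treated or of the memory line lay above the 3 of wild type, at 7 to 16 counts against 3 to 7. The log2 fold change was 1.07 on azacytidine in wild type (SE 0.58, edgeR adjusted p = 0.281) and 1.31 in the untreated memory line (SE 0.63, edgeR adjusted p = 0.337), neither of them called.

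Set against each other per kb of exon, the 4 hydroxylase genes summed to 24.0 ± 2.47 CPM per kb in wild-type plants without azacytidine and 19.4 ± 4.10 with it (SD, n = 3 each). For the memory line it was 15.1 ± 3.48 without azacytidine and 14.5 ± 8.91 with it (SD, n = 2 each). CYP707A3 made up 80.5 ± 2.12% of this sum in wild type, 54.2 ± 9.50% in treated wild type and 68.2 ± 0.310% in the memory line. In the treated memory line its share was 79.9% in replicate 1 and 44.4% in replicate 2. The wild-type replicates, at 78.7% to 82.8%, were above every replicate of treated wild type, at 43.7% to 62.2%.

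CYP707A1 went as a share from 8.91 ± 1.61% in wild type to 20.9 ± 5.59% in treated wild type (SD, n = 3 each), and CYP707A2 went from 9.73 ± 1.36% to 22.5 ± 3.05%. Untreated memory-line plants gave CYP707A1 18.1 ± 0.186% and CYP707A2 10.3 ± 0.252% (SD, n = 2 each). Under treatment CYP707A1 held 12.4% and 39.9%, and CYP707A2 6.14% and 11.1%. These shares are a description and were not tested.

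**Figure D3:**
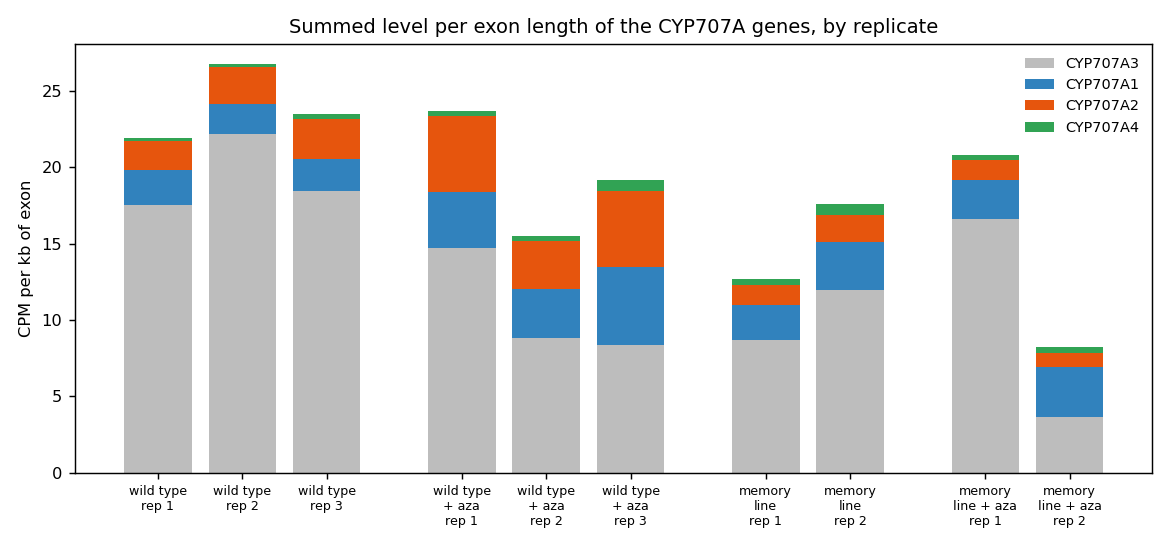
Summed level per exon length of the 4 hydroxylase genes (CPM per kb, y axis) in each of the 10 replicates, split by gene. CYP707A3 makes up 78.7% to 82.8% of the bar in wild type and 43.7% to 62.2% in treated wild type, and the 2 treated memory-line bars, at 20.8 and 8.20 CPM per kb, differ most in it.

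On the synthesis side, NCED3, the dioxygenase that drought induces, had 0.665, 0.945 and 1.03 CPM in wild-type plants without azacytidine and 2.26, 1.01 and 2.43 with it. The memory-line values were 1.72 and 3.10, and 2.13 and 1.09 on azacytidine. Both memory-line replicates lay above wild type, while treated wild-type replicate 2 lay within its range.

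These levels of NCED3 rest on 8 to 33 counts. The log2 fold change of NCED3 was 1.42 in the untreated memory line against wild type (SE 0.49, 95% interval 0.36 to 2.48, unadjusted p = 0.0124, edgeR adjusted p = 0.178). It was 1.10 on azacytidine in wild type (SE 0.46, 95% interval 0.11 to 2.08, edgeR adjusted p = 0.165) and -0.58 in the memory line (SE 0.52, edgeR adjusted p = 0.817). None of these was called, nor was the difference between both responses, at -1.67 (SE 0.69, edgeR adjusted p = 0.547).

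NCED5 and NCED9, dioxygenases known mostly from seeds, were near the limit of these libraries. NCED5 ranged from 0.143 to 0.662 CPM, 2 to 9 counts a replicate, and NCED9 from 0 to 0.752 CPM, 0 to 8 counts. A count of 0 for NCED9 in wild-type replicate 1, treated wild-type replicate 2 and treated memory-line replicate 2 allows up to 0.249, 0.232 and 0.219 CPM, the values of 3 counts, which cover counting error only. All groups overlapped for both genes, and a difference was not detectable at this depth. Of the summed level per kb of NCED3, NCED5 and NCED9, NCED3 held 54.1 ± 7.85% in wild-type plants and 72.1 ± 11.3% in treated ones (SD, n = 3 each). Its share was 72.6 ± 8.82% in memory-line plants and 74.8 ± 5.95% in treated ones (SD, n = 2 each). These shares rest on 12 to 46 counts a replicate and were not tested. NCED2 is outside the sum, with means of 0.282 and 0.308 CPM in untreated and treated wild type. In the memory line they were 0.522 and 0.395, so shares of all NCED genes would be lower.

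ABA2, the short-chain dehydrogenase that makes abscisic aldehyde, varied little. The wild-type replicates had 12.05, 16.1 and 17.2 CPM, and 13.5, 13.2 and 14.0 on azacytidine. Those of the memory line had 10.5 and 12.8, and 11.3 and 9.85 on azacytidine. The treated memory line lay below treated wild type without overlap, with a log2 fold change of -0.36 (SE 0.19, 95% interval -0.76 to 0.04, edgeR adjusted p = 0.474). On azacytidine the change was -0.16 in wild type (95% interval -0.51 to 0.19, edgeR adjusted p = 0.591) and -0.13 in the memory line (95% interval -0.58 to 0.31, adjusted p = 0.916).

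AAO3, the oxidase of the last step, was the least variable of the 8 tested members, with a biological coefficient of variation of 0.126. Wild-type replicates had 18.0, 19.9 and 19.1 CPM, and 17.2, 20.3 and 19.4 on azacytidine, against 17.1 and 14.1 for the memory line, and 11.6 and 15.03 on azacytidine. In both treatments the memory line lay below wild type without overlap. The change was -0.28 without azacytidine (SE 0.16, 95% interval -0.63 to 0.07, edgeR adjusted p = 0.437) and -0.50 with it (SE 0.16, 95% interval -0.86 to -0.15, unadjusted p = 0.00866, edgeR adjusted p = 0.250), so neither was called. On azacytidine in wild type it was -0.0038 (95% interval -0.31 to 0.30).

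BG1, which frees the hormone from its glucose ester, had 224, 139 and 183 CPM in wild-type plants without azacytidine and 209, 197 and 149 with it. The memory line had 376 and 161 CPM, and on azacytidine 102 and 160. Memory-line replicate 1 was the highest of all 10, and every replicate of the treated memory line lay within or below the range of wild type. The 1201 to 5239 counts behind BG1 leave little counting error, so its spread lies between replicates.

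The log2 fold change of BG1 on azacytidine in the memory line was -1.03 (SE 0.39, 95% interval -1.92 to -0.15, unadjusted p = 0.0271, edgeR adjusted p = 0.466). Without memory-line replicate 1 it was -0.29 (adjusted p = 0.755), while the limma voom fit gave an adjusted p of 0.00457. In wild type the change was 0.02 (SE 0.32, 95% interval -0.70 to 0.74, edgeR adjusted p = 0.975). Between the untreated genotypes it was 0.56 (SE 0.35, edgeR adjusted p = 0.503), and it was -0.18 without memory-line replicate 1 (adjusted p = 0.840).

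BG1 sits in endoplasmic reticulum bodies, and other genes of these bodies give its setting. TSA1, a protein of the bodies, was at 61.8 CPM in memory-line replicate 1 and 30.6 in replicate 2, the same order as BG1. PYK10, the most abundant glucosidase of the bodies in roots, had the reverse order, at 1655 and 2241 CPM. NAI1, a transcription factor needed for the bodies, was at 20.2 and 24.1. Of the 9 genes of this list, 1 (NAI1) fell on azacytidine in wild type, from 18.5 ± 2.06 to 10.6 ± 1.71 CPM (SD, n = 3 each; log2 fold change -0.80, SE 0.17, edgeR adjusted p = 0.0173).

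Counts over the 8 tested members, of which limma voom tested 7, were small in every comparison. On azacytidine in the memory line edgeR called 0 of them, where 0.740% of all genes tested were called, and 1 had an unadjusted p under 0.05. DESeq2 called 0 and limma voom 1, BG1. Between the untreated genotypes edgeR called 0, beside 1.17% of all genes called, and 1 member had an unadjusted p under 0.05. DESeq2 called 0 there and limma voom 1, CYP707A3. For the difference between both responses edgeR called 0, beside 0.0182% of all genes called. Of the members, 3 had an unadjusted p under 0.05 there (CYP707A1, CYP707A2 and NCED3). The share of all genes under that unadjusted threshold is not given here. DESeq2 called 0 and limma voom 1, BG1. The comparisons share control samples, so their values are given side by side and not as independent results.

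**Figure D4:**
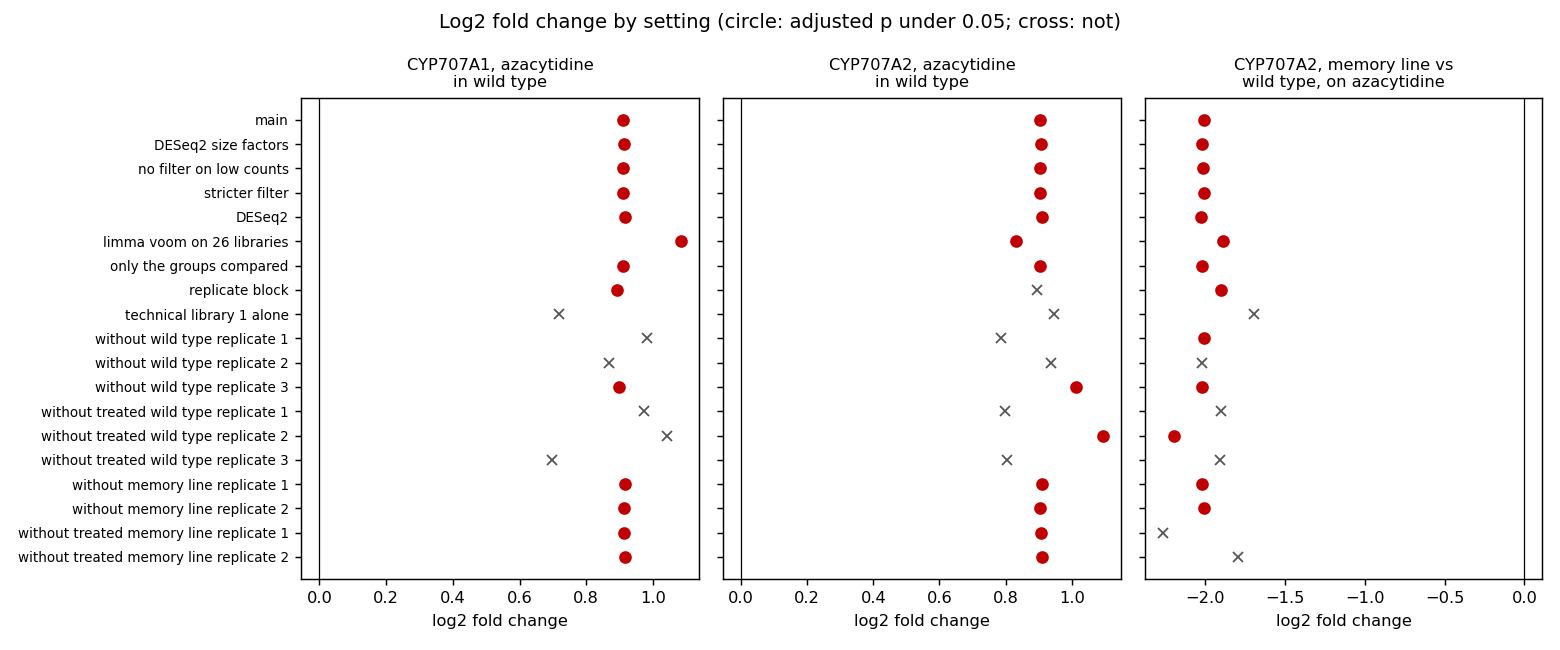
Log2 fold change (x axes) of the 3 called results under the chosen setting (top) and 18 alternatives, with a circle where the adjusted p was under 0.05 and a cross where not. All changes keep their sign, from 0.70 to 1.08, 0.78 to 1.09 and -2.27 to -1.70, and 12 of 18 alternatives call each.

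Around these enzymes, 70 other genes were listed for the carotenoid steps, hormone conjugation and transport, perception, signalling, output and the endoplasmic reticulum bodies, and 63 were tested. On azacytidine in wild type 1 rose and 7 fell, beside 3.02% and 3.37% of all genes, and their median log2 fold change was -0.15 against 0.0015 over all genes. At an unadjusted p under 0.05 there were 18, while DESeq2 called 3 higher and 9 lower and limma voom 4 and 12. In the other 4 comparisons edgeR called 0 of the 63, with 13 at an unadjusted p under 0.05 on azacytidine in the memory line, 11 between the untreated genotypes, 10 between the treated ones and 6 for the difference of responses. In the same order DESeq2 called 4, 5, 2 and 0 and limma voom, of the 62 it tested, 6, 9, 5 and 3. Over all genes limma voom called 3603 on azacytidine in wild type, where edgeR called 1408. In the other comparisons, in the same order, limma voom called 644, 1660, 949 and 389 and edgeR 163, 258, 10 and 4. The shares of all genes called by DESeq2, or at an unadjusted p under 0.05, are not given here.

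Upstream of the NCED step, edgeR called 0 of 9 carotenoid and xanthophyll genes on azacytidine in wild type. For the finished hormone, 0 of 5 transport genes and 0 of 4 tested genes of conjugation and release were called there. Among the other dioxygenases CCD1, which cleaves a range of carotenoids, fell from 344 ± 50.1 to 244 ± 11.2 CPM (SD, n = 3 each; log2 fold change -0.50, edgeR adjusted p = 0.0458). The aldehyde oxidase genes AAO1 and AAO2 and the cofactor sulfurase gene ABA3 were not called either.

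In perception, 2 of 9 receptor genes changed in wild type on azacytidine, in opposite directions. PYL7 fell from 35.6 ± 9.15 to 16.1 ± 0.992 CPM (SD, n = 3 each; log2 fold change -1.14, SE 0.18, edgeR adjusted p = 0.00278), although 49.7% of its exon bases lie under exons of the opposite strand. PYL6 rose from 15.6 ± 1.01 to 25.2 ± 3.44 CPM (log2 fold change 0.69, SE 0.18, edgeR adjusted p = 0.0421). Of 6 tested clade A protein phosphatases, which the receptors inhibit, 0 were called.

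Of 8 genes for SnRK2 kinases, which the phosphatases hold in check, and for bZIP factors, 2 fell. SNRK2.3, a kinase, went from 74.4 ± 10.2 to 46.9 ± 4.90 CPM (SD, n = 3 each; edgeR adjusted p = 0.0248) and ABF4, a bZIP factor, from 51.2 ± 2.72 to 36.0 ± 5.47 (adjusted p = 0.0280), with 29.1% of the exon bases of ABF4 under opposite exons. Of 8 output genes 2 fell. RD20, a caleosin induced by drying, went from 4.11 ± 2.61 to 0.921 ± 0.289 CPM (log2 fold change -2.14, SE 0.47, edgeR adjusted p = 0.0199) and RD26, a NAC factor, from 44.7 ± 17.2 to 11.0 ± 2.86 (-2.02, SE 0.43, adjusted p = 0.0340). The other 6 were not called and lay on both sides of 0, with RD29A at 1.17 (SE 0.35, edgeR adjusted p = 0.0896), HB-7 at 0.41, RD22 at 0.27, HB-12 at -0.15, RD29B at -0.17 and RAB18 at -0.50 on the log2 scale. CCD1, PYL6, SNRK2.3, ABF4, RD26 and the uncalled genes named here and among those of the endoplasmic reticulum bodies are named after their values were seen.

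In the same comparison the root markers CASP1, CASP2 and PRX64, which serve the Casparian strip of the endodermis, fell, at -1.005, -1.40 and -1.16 on the log2 scale (edgeR adjusted p = 0.00822, 0.00752 and 0.0118), and the list of 6 had a median of -0.88. Of 6 green shoot markers 1 rose, GLK1, at 0.68 (adjusted p = 0.0377), named after its value was seen. The part of root RNA in the changes of CYP707A1, CYP707A2 and the pathway genes was not tested.

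For each tested member, the 2 genes with the most similar log2 CPM over the 10 replicates were taken from 7477 genes with a reference symbol and a mean of at least 5 CPM. These Pearson correlations describe the same libraries and carry no test. CYP707A1 was most like CYP71B29 (0.917) and GT72B1 (0.893), and CYP707A2 was most like BEL1 (0.942) and SR1 (0.938). Like CYP707A2, BEL1 was highest in treated wild type, at 17.0 to 19.9 CPM, and lowest in the treated memory line, at 8.90 and 10.8. Its memory-line values, 13.3 and 13.8 CPM, overlapped those of wild type, 13.6 to 15.9.

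CYP707A3 was most like ADF1 (0.964) and NSI (0.936), both of which were lowest in treated memory-line replicate 2, at 95.5 and 55.3 CPM. CYP707A4 was closest to AHP4 (0.889) and BAM3 (0.878), and NCED3 to PUP1 (0.910) and AZG1 (0.895). ABA2 was nearest to OZF2 (0.873) and HVA22A (0.867), and AAO3 to AGD8 (0.933) and ABCC2 (0.919). BG1 was most like MBP2 (0.867) and BGAL17 (0.842), and MBP2 reached 21.4 CPM in memory-line replicate 1 against 3.06 to 11.8 in the other replicates.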

How the data were processed

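Gene expression was measured by RNA-seq in 26 libraries of 10 biological replicates. Each deposited file lists raw counts of reads for every gene, in whole numbers. Per the labels' protocols, RNA went into TruSeq version 2 libraries, read on a HiSeq instrument. The submitters' processing notes name TAIR10 and DESeq2 without a role. For the aligner and the counter, a name is not given in the sources used. The 5 entries naming no gene were left out, including reads assigned to no gene (48.3% to 49.3% of uniquely aligned reads).

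Counts of technical libraries of the same RNA were summed. Genes were kept with filterByExpr (minimum count 10, minimum total 15), scaled with TMM and fitted by edgeR 4.0.16 quasi-likelihood with robust dispersions on all 4 groups, without a block, in R 4.3.3. Benjamini-Hochberg adjustment ran over 22031 genes, and calls used an adjusted p under 0.05. Standard errors were taken from the F statistic, as log2 fold change over its root. DESeq2 1.42.0 and limma 3.58.1 voom, among 18 alternatives, also ran. Only the chosen edgeR fit and DESeq2 were also run on simulated counts, and only for azacytidine in wild type. Exon lengths, positions and upstream sequences come from RefSeq TAIR10.1, matched by gene identifier.

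The members and gene lists were chosen with earlier results of these data known. Named genes are all 10 members, the 6 called list genes with the smallest adjusted p per comparison and the 2 most similar genes of each member, and genes outside this rule were named after their values were seen. UGT71B7 and ABH2 were left out of the lists because the reference gives other names.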

Additional observations from a re-analysis of the deposited data

How the results depend on the processing

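The 18 alternatives were DESeq2 size factors, no filter, a stricter filter, DESeq2, limma voom on the 26 libraries, the compared groups alone, the replicate block, the first technical library alone and 10 fits that left out 1 replicate each. Leaving out 1 of 2 replicates assumes that the lone sample varies like the others. The members called on azacytidine in wild type were 2, but 1 with the replicate block (CYP707A2 adjusted p = 0.0582), 0 on the first technical library alone, 0 to 3 in the leave-one-out fits, and 3 with limma voom and with the compared groups alone, where CYP707A3 was added. Between the treated genotypes 1 was called, and 0 on the first technical library alone and 0 to 1 in the leave-one-out fits. Limma voom, which counts libraries and so has more residual degrees of freedom, called 1 member where edgeR called 0: on azacytidine in the memory line, between the untreated genotypes, and for the difference of responses. The replicate block changed no other call of a member. Same-numbered samples correlated, in their deviations from group means, at -0.20 to 0.25 over 13 pairs, and differently numbered ones at -0.25 to 0.20 over 24. In groups of 2 replicates these deviations mirror each other, so the ranges cannot decide on pairing. The labels do not say that the numbers mark a shared batch, so they were not taken as pairs. The CYP707A3 share in the memory line was 67.2% without length scaling, against 68.2%. Of the 688 refits of single members 28 turned sign, all in comparisons where that member had no call, and the cause was not tested. On the first technical library alone these were -0.00998 for BG1 in wild type, -0.26 for CYP707A1 and 0.00539 for CYP707A3 in the memory line, 0.0223 for NCED3 between treated genotypes and -0.0397 for ABA2 in the difference. With the replicate block it was 0.15 for CYP707A4 between treated genotypes. In the leave-one-out fits, AAO3 ranged from -0.0558 to 0.0625 and BG1 from -0.14 to 0.20 on azacytidine in wild type. In the memory line CYP707A1 ranged from -0.10 to 0.35, CYP707A3 from -1.50 to 0.67 and ABA2 from -0.27 to 0.0125. BG1 ranged from -0.18 to 1.05 between the untreated genotypes. Between the treated ones CYP707A3 ranged from -1.55 to 0.62 and NCED3 from -0.79 to 0.14, and in the difference CYP707A3 ranged from -0.63 to 1.53 and ABA2 from -0.12 to 0.17. Over the alternatives the calls among all genes ranged from 432 to 3603 (chosen setting 1408) on azacytidine in wild type, 91 to 644 (163) in the memory line, 32 to 1660 (258) between untreated and 1 to 949 (10) between treated genotypes, and 1 to 389 (4) for the difference. The compared groups alone give no value for the difference, and CYP707A4 had values in 13 alternatives. The lowest genes, at 33 counts or fewer, set the limit of depth.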
